A study of Mus musculus with 6 samples.

Results

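The 9 genes examined here receive and transmit hedgehog signals, and were measured in cells of the mouse Atoh1 lineage: the receptor Ptch1, the co-receptors Boc, Cdon and Gas1, the membrane transducer Smo, the inhibitor Sufu, and the transcription factors Gli1, Gli2 and Gli3. They were chosen by gene symbol, as every probe set that the platform annotation assigns to exactly 1 of these symbols, which gave 23 of the 45101 probe sets on the array and 9 of 18193 named genes. Cells came from the dissected rhombomere 1 and isthmus region of Swiss Webster embryos that carried Atoh1-CreER, a tamoxifen-dependent recombinase expressed where Atoh1 is, and the RCE reporter, which makes EGFP after recombination. In the early group the dam received tamoxifen (4 mg per 35 g, by gavage) at E10.5, and in the late group at E13.5. EGFP-positive cells of both groups were sorted at E14.5, so the early cells had carried the label longer than the late cells. Each group held 3 samples with 1 Affymetrix array each, and this small number limits the precision. Whether the samples came from separate litters is not in the labels, so p-values reflect how far these samples vary, and that variation may be technical. EGFP marks cells that had expressed Atoh1 around dosing and their descendants, not 1 cell type.

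Hedgehog ligands bind Ptch1, which otherwise holds Smo inactive. Boc, Cdon and Gas1 help the ligand to bind. Active Smo at the primary cilium releases Gli2 and Gli3 from Sufu, and the freed factors switch on targets that include Gli1 and Ptch1 themselves, whereas unstimulated Gli3 is cleaved to a repressor. In the cerebellum, Sonic hedgehog from Purkinje cells drives the division of granule cell precursors, which express Atoh1 in the external granule layer, while the earlier cohort of Atoh1-expressing cells of rhombomere 1 mostly forms neurons of brainstem and deep cerebellar nuclei.

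The arrays were of similar brightness, with median signals of 97.7 to 112 units. Pairs of late arrays had Spearman correlations of 0.938 to 0.945 over the probe sets that are not controls. Pairs of early arrays had 0.874 to 0.893, and pairs across groups 0.845 to 0.885. The most alike pair across groups was therefore more alike than the least alike pair of early arrays. The 3′ to 5′ ratio of the Actb control, a measure of RNA integrity, ranged from 17.4 to 26.2 for early arrays. It ranged from 12.9 to 16.1 for late arrays, so every early array lay above every late array. The Gapdh ratio ranged from 10.6 to 13.2 on early and from 9.47 to 12.1 on late arrays, with overlap. The part of RNA integrity in the differences between the groups was not tested. Atoh1 itself lay between 397 and 936 units on the early and between 6819 and 9733 units on the late arrays. Early replicate 3 had a low signal of the female-specific Xist (166 units, against 8142 to 19797 on the other arrays). Late replicate 3 had a low signal of the Y-linked Eif2s3y (14.1 units, against 826 to 1772 on the other arrays). The sex composition of the samples therefore differed.

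Promoter windows of RefSeq (GRCm38.p6) were found for 7 of the 9 genes (all but Boc and Gli1), and the stretches next to the start sites of 3 genes that were higher in the late cells, and the sole match to a Gli motif, are shown here as the regulatory DNA of genes that moved together. The canonical Gli-binding sequence GACCACCCA, searched on both strands in the 250 bases before each start, was in none of the 7 windows and in 0.225% of all 32851 windows. Its 7-base core ACCACCC, which lies within the longer motif, was in 1 of the 7, that of Gli2, and in 3.92% of all windows. The E-box CAGCTG, a form of the motif bound by proneural factors of the Atoh1 kind and the same on both strands, was in none of the 7 and in 13% of all windows. In the Gli2 stretch, 216 to 188 bases before the start (chr1:119053807-119053835, minus strand), the capitals mark the core as read from the opposite strand. That window lies inside the annotated Gli2 gene, which extends farther upstream. The windows of Ptch1 (chr13:63565736-63565985) and Cdon (chr9:35451826-35452075) likewise lie inside their annotated genes. The search therefore did not cover the DNA before the outermost start of these genes. In the other stretches, the 100 bases before the start, capitals mark CpG dinucleotides. They cover chr6:29735397-29735496 (plus strand) for Smo, chr13:60177536-60177635 (minus strand) for Gas1 and chr13:15463623-15463722 (plus strand) for Gli3.
Gli2: atccccctccaGGGTGGTgtccccccacc
Smo: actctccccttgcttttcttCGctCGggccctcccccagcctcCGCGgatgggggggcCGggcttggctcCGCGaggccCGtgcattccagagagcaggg
Gas1: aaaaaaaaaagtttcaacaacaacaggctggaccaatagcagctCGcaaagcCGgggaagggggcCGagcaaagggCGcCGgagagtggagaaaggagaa
Gli3: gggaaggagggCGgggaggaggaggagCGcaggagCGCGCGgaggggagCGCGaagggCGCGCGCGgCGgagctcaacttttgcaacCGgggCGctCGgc
Over the 250 bases before the start, Gli3 held 34 CpG dinucleotides, Gli2 22, Smo 15 and Gas1 10, against a median of 6 over all windows. At least 34 were found in 3.53% of all windows and at least 10 in 37.8%. A match or its absence describes these letters only.

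The comparison asked how hedgehog reception and transduction genes differed, at 1 common age, between cells labelled early and cells labelled late. Ptch1, Smo, Boc, Gas1, Gli2 and Gli3 were higher in the late cells, by 2.28-fold to 15.7-fold on the brightest probe set of each gene, whereas the differences of Cdon and Sufu did not pass the test and Gli1 was too dim to be tested. A probe set was tested when it lay above its array's median on at least 3 of the 6 arrays, the median standing in for a detection limit, and passed at a Benjamini-Hochberg adjusted p under 0.05 over all tested probe sets (limma on log2 signals, two-sided). Of the 23 probe sets, 14 were tested, 12 passed with the late group higher and 0 with the early group higher. Among all 23471 tested probe sets 26.0% passed, 12.6% with the late group higher (3158 probe sets passed with the early group higher). In the same 12 member probe sets every late array lay above every early array, which was so for 24.8% of all tested probe sets. The median log2 difference, early minus late, was -2.60 over the 14 member probe sets and -0.09 over all tested ones. A probe set bright in 1 group alone could enter the test through that group. Ptch1 1439663_at and Gli2 1446086_s_at, both among the 12, were above the median on 0 early and 3 late arrays and entered in this way. Gli3 1456067_at (1 early and 3 late arrays) and Gas1 1448494_at (2 early and 3 late), also among the 12, likewise needed late arrays to reach 3. The 14 are therefore not a neutral sample of the 23. In sorted cells, fewer cells that express a gene and less of its RNA per cell cannot be told apart.

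**Figure D1:**
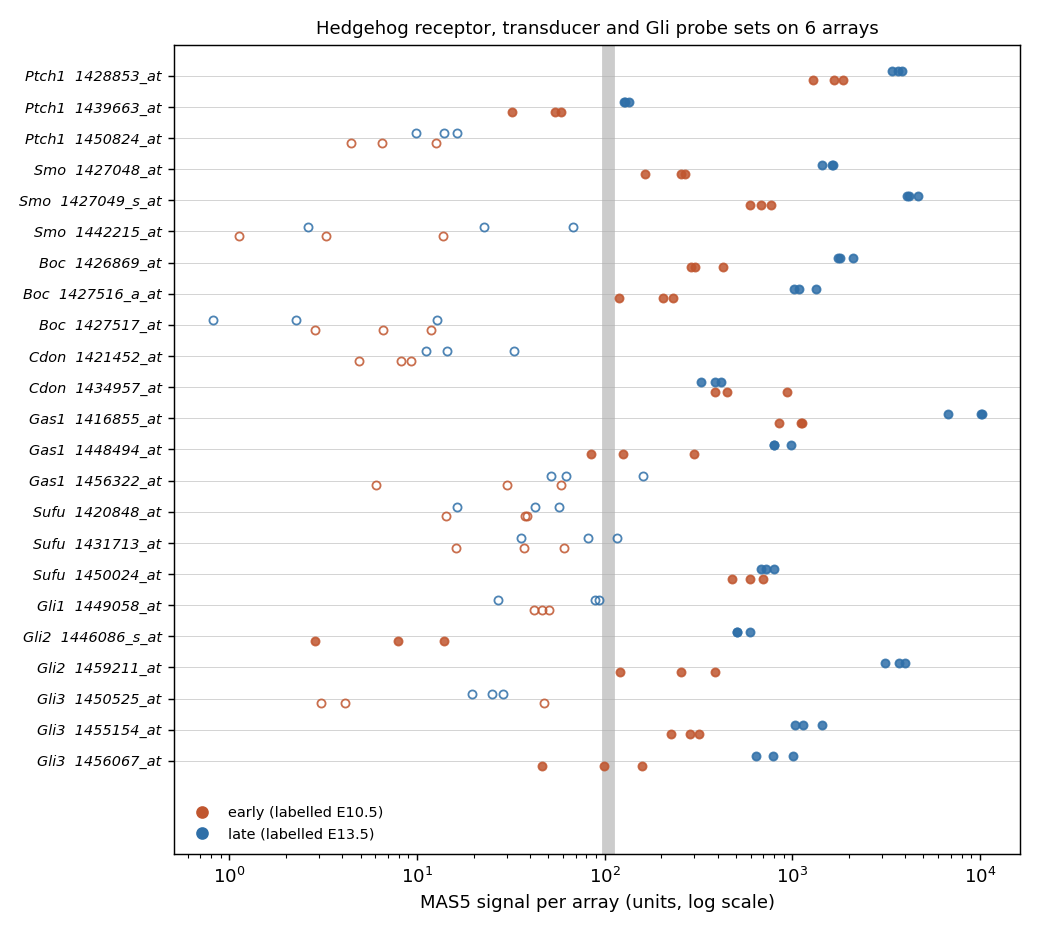
MAS5 signal (horizontal axis, log scale) of each of the 23 probe sets of the 9 genes, 1 point per array, early in orange and late in blue, filled where the probe set was tested. The grey band spans the 6 array medians, 97.7 to 112 units. In 12 of the 14 tested probe sets all late points lie to the right of all early points, and the Gli1 points lie left of the band.

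Ptch1, the receptor (chr13:63508328-63573460), was measured by 3 probe sets. On the brightest, 1428853_at, the early arrays read 1678, 1874 and 1293 units and the late arrays 3835, 3666 and 3410 units. All late arrays lay above all early ones, and no array stood far from its group. The late group was 2.28-fold higher, a log2 difference of -1.19 ± 0.20 (SE; limma adjusted p = 0.00977). This was the smallest difference among the member probe sets that passed, and 12.4% of all tested probe sets differed more toward the late group. The dim probe set 1439663_at read 58.7, 32.1 and 54.4 units on the early and 135, 127 and 129 units on the late arrays, again without overlap. Its early signals all lay below their array medians, so its 2.78-fold difference (limma adjusted p = 0.0117) rests on signals near background. The third probe set, 1450824_at, stayed between 4.45 and 16.4 units on all arrays and was not tested. The call of 1439663_at was lost without late replicate 1 (limma adjusted p = 0.0507) or late replicate 3 (0.0503), with signals raised to the array median (0.262) and with an intensity trend (0.105). Both Ptch1 calls were lost with no filter (limma adjusted p = 0.0573 for 1428853_at and 0.056 for 1439663_at) and without early replicate 3 and late replicate 3 together (0.0764 and 0.0853).

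Of the co-receptors, Boc and Gas1 were higher in the late cells, while the difference of Cdon did not pass. Boc, an immunoglobulin-family membrane protein that binds the ligand (chr16:44485045-44558870), read 301, 290.2 and 427 units on the early and 2096, 1806 and 1747 units on the late arrays with probe set 1426869_at. Every late array was several times brighter than every early array, and the difference was 5.62-fold (log2 -2.49 ± 0.22, SE; limma adjusted p = 0.00163). Another Boc probe set, 1427516_a_at, read 232, 119 and 203 units against 1343, 1083 and 1020 units. Here too the groups were apart, by 6.41-fold (limma adjusted p = 0.00264). The remaining Boc probe set, 1427517_at, read at most 12.8 units on any array and was not tested. The mean of the log2 signals over all 3 probe sets differed by -1.36 (limma adjusted p = 0.0378).

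Gas1, a glycolipid-anchored co-receptor (chr13:60174405-60177535), had the largest difference of the 3 co-receptors. Probe set 1416855_at read 1109, 1128 and 848 units on the early and 10262, 6726 and 10137 units on the late arrays. Late replicate 2 was the lowest of its group but still far above every early array, and the late group was 8.70-fold higher (log2 -3.12 ± 0.25, SE; limma adjusted p = 0.00136). Only 1.25% of all tested probe sets differed more toward the late group. With probe set 1448494_at the early arrays read 300.4, 126 and 84.7 units, with replicate 1 well above the other two, and the late arrays 980, 802 and 801 units. The groups did not overlap, and the difference was 5.82-fold (limma adjusted p = 0.0118), and it no longer passed without late replicate 1 (0.0511) and without early replicate 3 and late replicate 3 together (0.0796). The dim 1456322_at ranged from 6.08 to 58.5 units on early arrays and from 51.9 to 160 units on late arrays, with overlap, and was not tested. The mean over the 3 probe sets differed by -2.51 on the log2 scale (limma adjusted p = 0.00821).

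Cdon, a relative of Boc with the same co-receptor role (chr9:35421528-35507652), read 933, 449 and 386 units on the early and 326, 417 and 386 units on the late arrays with 1434957_at. The groups overlapped, and early replicate 1 stood apart at more than any other array. The log2 difference was 0.54 ± 0.36 (SE; 95% interval -0.33 to 1.41; limma adjusted p = 0.312), the sole tested member probe set with the early mean above the late mean. The other Cdon probe set, 1421452_at, was at or below 32.9 units on every array and was not tested. In the mean over both probe sets the direction turned, to -0.37 on the log2 scale (limma adjusted p = 0.494).

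Smo, the seven-pass membrane protein that Ptch1 restrains (chr6:29735497-29761366), was higher in the late cells on both tested probe sets. Probe set 1427049_s_at read 595, 678 and 774 units on the early and 4688, 4062 and 4178 units on the late arrays. Both groups were tight and far apart, at 682 ± 89.5 against 4310 ± 333 units (SD, n = 3 in each), or 6.34-fold (log2 -2.66 ± 0.19, SE; limma adjusted p = 0.00115). Probe set 1427048_at read 255, 164 and 268 units against 1443, 1635 and 1647 units, also without overlap and 7.02-fold apart (limma adjusted p = 0.00159). The remaining Smo probe set, 1442215_at, scattered between 1.13 and 67.9 units and was not tested.

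Sufu, the cytoplasmic protein that holds Gli factors back (chr19:46396896-46488804), read 699, 478 and 596 units on the early and 683, 801 and 726 units on the late arrays with 1450024_at. The groups overlapped through early replicate 1. The log2 difference was -0.33 ± 0.21 (SE; 95% interval -0.84 to 0.17; limma adjusted p = 0.286). Probe sets 1420848_at and 1431713_at read at most 56.8 and 117 units and were not tested.

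Gli2, the main activating Gli factor (chr1:118834061-119054405), showed the largest differences of the 9 genes. Probe set 1459211_at read 121, 389 and 254 units on the early and 4002, 3695 and 3111 units on the late arrays. The early arrays spread widely among themselves, with replicate 1 lowest, but all lay far below the late arrays. The late group was 15.7-fold higher (log2 -3.97 ± 0.43, SE; limma adjusted p = 0.00248), and 0.486% of all tested probe sets differed more toward the late group. Probe set 1446086_s_at read 2.85, 7.95 and 14.004 units on the early arrays and 597, 507 and 507 units on the late arrays (limma adjusted p = 0.00163). All its early signals lay below their array medians, near background. Its fitted 78.5-fold difference became 50.7-fold without early replicate 1, 40.1-fold with an offset before log2 and 4.99-fold with signals raised to the array median, and it passed in each case. The mean over both probe sets differed by -5.13 on the log2 scale (limma adjusted p = 0.00139).

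Gli3, the Gli factor best known as a repressor (chr13:15463723-15730026), was also higher in the late cells. With 1455154_at the early arrays read 319, 227 and 285 units and the late arrays 1436, 1028 and 1137 units. The groups did not overlap and differed 4.34-fold (log2 -2.12 ± 0.22, SE; limma adjusted p = 0.0024). With 1456067_at the early arrays read 46.1, 98.9 and 158 units and the late arrays 1012, 637 and 786 units, a difference of 8.90-fold (limma adjusted p = 0.00604). Only early replicate 3 was above its array median there, and with signals raised to the median the difference was 6.60-fold. Probe set 1450525_at read at most 47.5 units and was not tested.

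Gli1, a direct target and amplifier of the pathway (chr10:127329882-127341579), had 1 probe set, 1449058_at. It read 46.4, 50.5 and 42.2 units on the early and 92.8, 89.0 and 26.9 units on the late arrays. All 6 values lay below their array medians, and the groups overlapped because late replicate 3 was the lowest array of all. In a fit without the filter the log2 difference was -0.39 ± 0.54 (SE; 95% interval -1.72 to 0.95; limma adjusted p = 0.722). No Gli1 signal rose above an array median in either group. The interval included 0 and differences in both directions, so these data do not settle whether Gli1 differed.

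**Figure D2:**
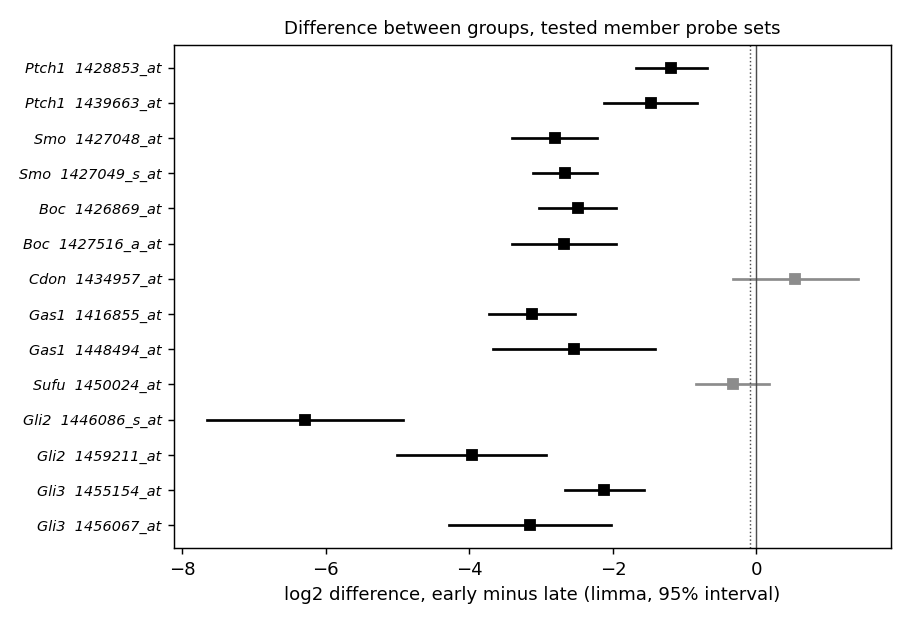
Log2 difference, early minus late (horizontal axis), for the 14 tested probe sets of the 9 genes, with the 95% interval of limma; black passed the adjusted p, grey did not. The dotted line marks the median of all tested probe sets, -0.09. The 12 black intervals lie left of 0, from -1.19 for Ptch1 to -6.29 for Gli2, and the grey intervals of Cdon and Sufu include 0.

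Because each array was scaled as a whole, pairs of members were also compared within each array, which removes the scaling. The log2 signal of Gli2 minus that of Gli3 was -1.40, 0.78 and -0.16 on the early and 1.48, 1.85 and 1.45 on the late arrays. The late arrays all lay above the early ones, with a mean difference, early minus late, of -1.85. It was -0.82 with the Gli3 probe set 1456067_at and -2.46 with the dim 1450525_at in place of 1455154_at, and -3.14 to -4.78 with the Gli2 probe set 1446086_s_at, whose early signals lay near background. Ptch1 minus Smo was 1.50, 1.47 and 0.74 on the early and -0.29, -0.15 and -0.29 on the late arrays. Again the groups were apart, by 1.48 on the log2 scale, with early above late. Gli1 minus Gli2 averaged -2.31 ± 0.82 on early and -5.89 ± 0.84 on late arrays (SD, n = 3). Gli1 minus Gli3 averaged -2.57 ± 0.35 and -4.30 ± 0.98, and Ptch1 minus Gli1 averaged 5.11 ± 0.15 and 5.91 ± 0.94. The last 3 pairs rest on the dim Gli1 probe set. In each of the 5 pairs, taken with the brightest probe set of each gene, the groups did not overlap. The exact permutation test gave p = 0.1 for each (two-sided, 0.1 after adjustment over the 5 pairs). This is the smallest value that 3 arrays against 3 can give, so none could pass 0.05. With the dim Smo probe set 1442215_at, Ptch1 minus Smo overlapped between the groups (exact permutation p = 0.6 to 0.8, by Ptch1 probe set). So did Gli1 minus Gli3 with Gli3 probe set 1450525_at (0.5) and Ptch1 minus Gli1 with Ptch1 probe set 1450824_at (0.6). How many other pairs of genes keep the groups apart was not counted. Signals of different probe sets are not on 1 scale, so the sign of such a difference is no comparison of levels.

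**Figure D3:**
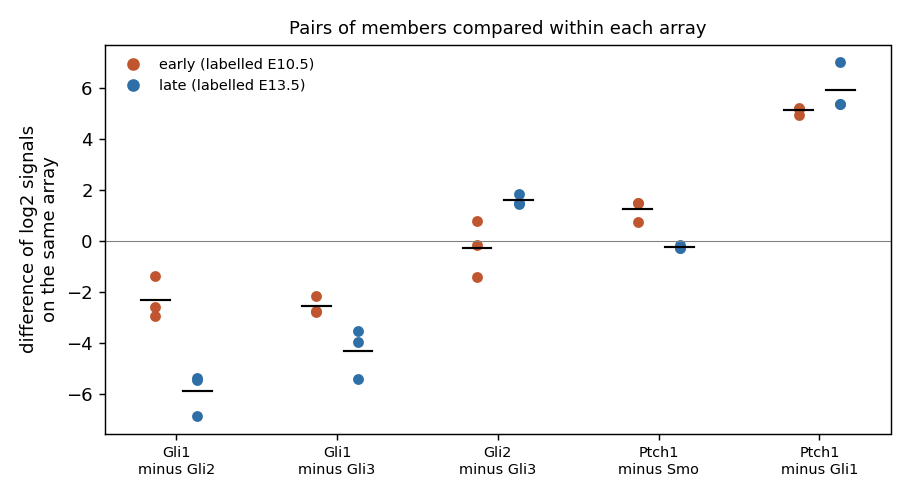
Difference of the log2 signals of 2 members on the same array (vertical axis) for 5 pairs, 1 point per array and a bar at the group mean, early in orange and late in blue. With the brightest probe set of each gene, the 2 groups do not overlap in any pair. Gli2 minus Gli3 averages -0.26 early and 1.59 late.

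Genes elsewhere in the pathway were taken from 5 lists and counted by the brightest probe set of each gene; of 89 tested genes 26 passed, 18 of them higher in the late cells. Among all 11064 tested genes 30.2% passed, 1544 with the late and 1796 with the early group higher, and the median log2 difference was -0.03. Without late replicates 1, 2 and 3 in turn, 12, 13 and 13 of the 89 passed, and without early replicate 3 and late replicate 3 together 10.

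Of the transcriptional targets, 9 of 13 tested genes were higher in the late cells and 0 in the early cells, with a median of -1.81. The list was chosen with earlier results of these data known. It holds cell cycle genes such as Ccnd1, Ccnd2, Ccne1 and Cdk6, so it is not separate in kind from the proliferation markers below. Ccnd2 and Ccnd1, cyclins that carry precursor cells through G1, read 2929, 1599.5 and 2149 against 17215, 15464 and 13347 units and 447, 403 and 542 against 3382, 3014 and 2899 units. Both were without overlap, 7.07-fold and 6.71-fold higher in the late cells (limma adjusted p = 0.00193 and 0.00115). Hsd11b2, an enzyme that inactivates glucocorticoids, read 546, 775 and 681 against 5717, 4480 and 5475 units, 7.87-fold apart (limma adjusted p = 0.00116). Nav2, a protein of axon growth, was 5.13-fold higher in the late cells (limma adjusted p = 0.00563; 0.0715 without early replicate 3 and late replicate 3). Those that did not pass were Bmi1, Bcl2, Igf2 and Foxm1, named after their values were seen. The count was 7 without any 1 of the late arrays, 8 to 10 without any 1 of the early arrays and 5 without early replicate 3 and late replicate 3 together.

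Proliferation markers differed in the same direction as the members: 9 of 9 tested were higher in the late cells, with a median of -2.82. Their summed signal was 47050 to 49227 units on the late against 5645 to 7267 units on the early arrays. The count stayed at 9 when any 1 array was left out, and was 7 without early replicate 3 and late replicate 3 together. Mki67, a marker of cycling cells, read 1201, 1029 and 972 against 12536, 11191 and 11581 units, 11.1-fold apart (limma adjusted p = 0.00112). The part of this difference in that of the hedgehog genes was not tested.

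Of 10 genes for ligands and their release factors, 5 were tested, of which 2 passed with the early cells higher, 0 with the late cells higher and 3 did not pass. Disp2, a relative of the ligand-release protein Disp1, read 1064, 1048 and 1594 units on the early and 207, 305 and 257 units on the late arrays, 4.78-fold higher early (limma adjusted p = 0.00276). Scube3, a secreted carrier of the ligand family, read 371, 345 and 153 against 35.1, 51.1 and 6.37 units (limma adjusted p = 0.0246). All its late signals lay below their array medians, so it entered the test through the early arrays alone, and its call was lost without early replicate 1 (limma adjusted p = 0.0636), early replicate 2 (0.0581) or late replicate 1 (0.0591), with no filter (0.0775) and with array weights (0.0611). Its 12.0-fold difference was 18.0-fold without late replicate 2 and 6.37-fold without late replicate 3, and 2.62-fold with signals raised to the array median. The count of ligand and release genes higher early was 1 without early replicate 1 or 2 or late replicate 1, and 1 gene of the list was higher late without early replicate 1 or with signals raised to the array median. Shh itself, named after its values were seen, read 830.4, 133 and 201 units on the early and 85.6, 96.4 and 111 units on the late arrays. Its early mean was raised by replicate 1, and it did not pass (limma adjusted p = 0.142). Scube2, a secreted relative of Scube3 and likewise named after its values were seen, read 12.8, 167 and 150 units on the early and 365, 540 and 287 units on the late arrays. All late arrays lay above all early ones, by 5.61-fold, and it did not pass (limma adjusted p = 0.119), but it passed with signals raised to the array median (2.73-fold, limma adjusted p = 0.00708). Disp1 overlapped between the groups and did not pass (limma adjusted p = 0.58). Hhip, a ligand-binding feedback inhibitor, read at most 101 units on any array and Lrp2 at most 71.4, so neither was tested.

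Genes of Gli processing and degradation were mostly without a call: early cells were higher in 4 of 26 tested genes and late cells in 1, with a median of 0.32. Prkar2b, a regulatory subunit of protein kinase A, which phosphorylates Gli factors, read 9855, 11708 and 12672 against 3740, 3352 and 4178 units, 3.03-fold higher early (limma adjusted p = 0.00321). Arrb1, an arrestin, was 2.28-fold higher early (limma adjusted p = 0.0179), and failed without late replicate 1 (0.0685), 2 (0.068) or 3 (0.0627), without early replicate 3 and late replicate 3 together (0.0974) and with no filter (0.079). The calls of Prkacb, a catalytic subunit of protein kinase A (early, limma adjusted p = 0.048), and Itch, a ubiquitin ligase (late, 0.0419), were weaker still. That of Prkacb was lost without early replicate 1 (0.0609) or 3 (0.0761) or late replicate 1 (0.143), 2 (0.108) or 3 (0.156), without early replicate 3 and late replicate 3 together (0.229), with median centring (0.0589) and with no filter (0.169). That of Itch was lost without early replicate 2 (0.0787) or 3 (0.0921) or late replicate 1 (0.0792), 2 (0.094) or 3 (0.132), without early replicate 3 and late replicate 3 together (0.216), with array weights (0.0653) and with no filter (0.145). With any 1 array left out, 1 to 3 genes of this list were higher early and 0 to 2 higher late, and with limma's trended and robust variance 8 were higher early and 2 higher late.

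Cilium and intraflagellar transport genes went both ways: among 45 tested genes, late cells were higher in 8 and early cells in 2, with a median of -0.13. Kif3a and Kifap3, subunits of the kinesin that carries cargo along cilia and also along axons, read 1963, 2116 and 2260 against 488, 512 and 588 units and 14734, 13367 and 15955 against 5174, 5618 and 5405 units. Both were higher in the early cells, 4.00-fold and 2.71-fold (limma adjusted p = 0.00161 and 0.003), and the call of Kifap3 was lost without early replicate 3 and late replicate 3 together (0.053). Evc, a ciliary protein that binds Smo, read 44.6, 29.4 and 84.7 against 199, 186 and 184 units, higher in the late cells (limma adjusted p = 0.015). All early signals of Evc lay below their array medians, so it entered the test through the late arrays alone. Its 3.95-fold difference was 1.77-fold with signals raised to the array median. B9d1, of the ciliary transition zone, was 2.60-fold higher late (limma adjusted p = 0.0137). Neither gene passed without late replicate 1 (limma adjusted p = 0.0594 for Evc and 0.056 for B9d1), 2 (0.0533 and 0.055) or 3 (0.0567 and 0.0529), or with no filter (0.059 and 0.0633). Without late replicates 1, 2 and 3 in turn, 1 of the 45 was higher late each time. Without early replicates 1, 2 and 3 in turn 5, 10 and 4 were higher late and 4, 3 and 2 higher early.

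**Figure D4:**
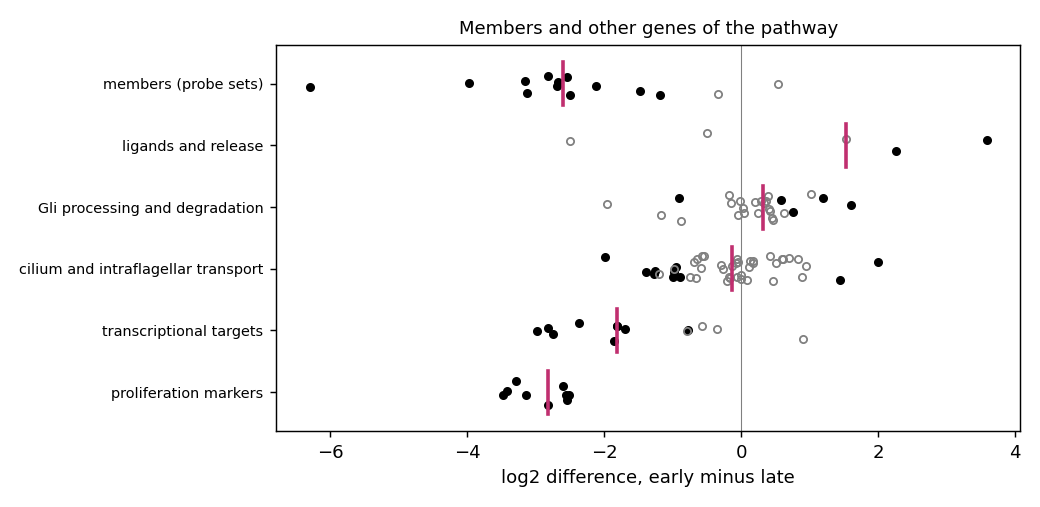
Log2 difference, early minus late (horizontal axis), of the 14 tested member probe sets and of tested genes in each list, 1 point each; filled points passed the adjusted p and the bar is the list's median. Members, transcriptional targets and proliferation markers have medians of -2.60, -1.81 and -2.82, whereas the processing and cilium lists have medians of 0.32 and -0.13.

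Markers of other cells that express hedgehog genes were set beside these results. Of 8 tested radial glia and ventricular zone markers, 2 were higher in the late cells (Slc1a3 and Vim) and 1 in the early cells (Fabp7). With 1 array left out the late count was 1 or 2, and the early count was 1 without late replicate 2 and 0 without any other array. Their summed signal was 21466 to 24004 units on the early and 29739 to 36324 units on the late arrays, mostly Vim and Fabp7. For mesenchyme and pericytes, which also express Gli and Ptch1 genes, 4 markers were tested and none passed (limma; 0 also at an unadjusted p under 0.05), with a sum of 792 to 3016 units early and 417 to 1221 units late. Dcn, Lum and Twist1 lay at or below the median on all arrays. Floor plate markers, of the ligand source, summed to 1001 to 1371 units early and 157 to 360 units late. Of these Foxa1, Foxa2, Lmx1a and Nkx6-1 lay at or below the median on all arrays, and Spon1 was higher in the early cells (limma adjusted p = 0.00496). Purkinje cell and GABA interneuron markers were higher in the early cells for 3 of 5 tested genes, with sums of 2166 to 3586 against 810 to 1187 units. That count was 1 without late replicate 1 or 3 and 2 without early replicate 1 or 3 or late replicate 2. For the oligodendrocyte lineage 2 of 4 tested markers (Olig1 and Olig2) were higher early and 1 (Pdgfra) late, with sums of 2709 to 3144 against 864 to 1110 units. The late call was lost without late replicate 1 or 3. Endothelial markers passed in 0 of 3 tested genes (limma; 0 also at an unadjusted p under 0.05, and 1 higher early without late replicate 2), with sums of 482 to 2682 against 370 to 1595 units, and microglia and blood markers in 1 of 2 (Csf1r, higher early), with sums of 606 to 1519 against 388 to 504 units. The Csf1r call was lost without early replicate 1 or any 1 of the late arrays. The part of these cells in the differences of the hedgehog genes was not tested. Among markers of the Atoh1 lineage itself, 5 of 10 tested were higher late and 2 early; 3 were higher late without late replicate 1 or 3, and 1 was higher early without late replicate 1. The 2 were Lhx9 and Lhx2, LIM homeodomain factors of early Atoh1-derived neurons. Summed lineage markers were 50531 to 55719 units early and 87121 to 93751 units late.

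The genes most like each main member were sought by the root mean square difference between log2 signals, each centred on its mean over the 6 arrays, among 10649 tested genes. For Ptch1 these were Rfwd3 (0.0437), Bccip (0.0622) and Sdcbp (0.0923), and for Smo Hells (0.0588), Ccnd1 (0.111) and Epha3 (0.125). Hells, a chromatin remodelling protein of dividing cells, was 6.69-fold higher in the late cells, close to the 6.34-fold of Smo. Gli3 lay nearest to Ece2 (0.0631), Incenp (0.0667) and Igf2bp1 (0.109). For Gli2 the nearest were Nbl1 (0.188), Crabp2 (0.285) and Bub1 (0.385), farther away than for Ptch1, Smo and Gli3. The early signals of Nbl1 and Crabp2 all lay below their array medians, near background. With signals raised to the array median these 2 genes differed by 2.83-fold and 1.40-fold (limma adjusted p = 0.00114 and 0.0854). For the dim Gli1 probe set the nearest genes were Malt1 (0.281), Tspan15 (0.302) and Cep290 (0.328), which differed between the groups by 1.15-fold or less. Over 2 groups of 3 arrays such likeness cannot be told apart from a group difference of like size, and no test was made of it.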

How the data were processed

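The authors deposited linear intensities, a MAS5 signal for each probe set on each array. MAS5 is the tool given in the submitters' processing notes, while its version and detection calls, and any pooling of embryos, are not known here. As the values show, every array had been scaled to a mean of 500 units over its signals without the lowest and highest 2%, so total RNA per cell cannot be read. MAS5 subtracts mismatch signals, and dim signals scatter widely after log2.

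The groups were compared on log2 signals (early minus late) in R 4.3.3 with lmFit and eBayes of limma 3.58.1, whose prior had 2.26 degrees of freedom, over all 23471 probe sets above their array's median (50th percentile) on at least 3 of 6 arrays; the 64 control probe sets were left out. Of all probe sets 34958 carried 1 gene symbol, 932 several and 9211 none. A gene in a list was represented by its brightest single-symbol probe set. Means carry the SD over 3 arrays and folds are back-transformed log2 differences. The fit was also run on simulated data with normal noise and the same SD in both groups. That setting lacks the unequal spread of the groups here, and no result rests on it. Named were all members, up to 4 genes with the largest passing difference of a list (otherwise up to 2 as values) and the 3 nearest genes of 5 members. Members and lists were chosen with earlier results of these data known.

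Alternatives were a replicate block, quantile normalization, median centring, an offset of 5.97 units, a floor at the array median, a filter at the 70th percentile or none, an intensity trend with robust settings, array weights, the mean over probe sets, and leaving out arrays with the tested probe sets kept.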

Additional observations from a re-analysis of the deposited data

How the results depend on the processing

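Over 16 alternatives the 14 tested member probe sets gave 223 values, of which 213 kept direction and call, 10 lost the call and 0 reversed; the 10 belonged to Ptch1 and to Gas1 1448494_at. The mean over all probe sets of a gene, not among these 16, kept the calls of the 6 passing members and turned the direction of Cdon, which did not pass (-0.37). The count of passing member probe sets was 9 to 12. All probe sets past the threshold numbered 3593 of 23471 with the replicate block, 2719 of 45037 with no filter and 1504 without early replicate 3 and late replicate 3. Leaving out 1 early array gave 5474 to 5849, and leaving out 1 late array gave 2942 to 3342. Pathway genes past the threshold numbered 16 with the replicate block, 12 with no filter, 10 without early replicate 3 and late replicate 3, and 12 to 25 with 1 array left out. With 2 arrays in a group fewer degrees of freedom remain, whichever group lost the array. With no filter more probe sets were adjusted for, and the SE changed too (0.20 to 0.25 for Ptch1 1428853_at). The causes of these changes in count were not tested. Same-numbered replicates did not deviate together (correlations of -0.03, -0.07 and -0.01), so no pairing by number was seen. Such correlations cannot show whether same-numbered samples were handled together. The replicate block left all 12 member calls in place. The block ended the calls of Arrb1, Prkacb and Itch (limma adjusted p = 0.0553, 0.119 and 0.113), and the processing list then had 1 gene higher early and 0 late. The 5 within-array differences kept their sign under every alternative run, but their sizes moved. Ptch1 minus Gli1 was -0.80 with all arrays and -0.26 without late replicate 3. Ptch1 minus Smo ranged from 0.63 to 1.94 over the probe sets. Dim signals limit Gli1 and 8 other untested probe sets.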
